A study of Homo sapiens with 6 samples.

Results

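The genes described here are 9 of the 17811 listed in the table: NFE2L2 and KEAP1, the regulators of the antioxidant response, and the defence genes GCLC, GCLM, NQO1, HMOX1, AOX1, TXNRD1 and SRXN1. They were chosen by name, with earlier results of these data known, and were found by matching Ensembl identifiers to symbols. All 9 were listed and all 9 passed the filter on low values. Poly(A) RNA had been sequenced from 22RV1 cells, a human prostate cancer line, in 3 groups of 2 libraries. One group stably expressed a hairpin against IMPA1 (shIMPA1), which encodes an inositol monophosphatase. One expressed a hairpin against IMPDH2 (shIMPDH2), which encodes an enzyme of guanine nucleotide synthesis. The control group expressed a hairpin against luciferase (shLuc). RPMI-1640 with 10% FBS was the medium of all groups, and each of them carries a stably expressed hairpin. The labels do not state if replicate libraries are independent cultures. The p-values therefore cover library-to-library spread that may be only technical. An effect of the line or hairpin and an effect of the target cannot be told apart.

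NRF2, the product of NFE2L2, is a transcription factor that KEAP1 normally holds for destruction by acting as the substrate adaptor of a CUL3 ubiquitin ligase. Oxidants and electrophiles modify KEAP1, NRF2 then accumulates, pairs with a small MAF protein and binds antioxidant response elements in genes of glutathione, thioredoxin, quinone and heme metabolism. NRF2 is controlled largely at the level of protein stability, so its transcript is not a measure of its activity.

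Whole reads were recovered from the deposited normalized counts, and the libraries held between 20828900 and 27773294 of them. The shIMPDH2 libraries were the shallowest. The shIMPA1 libraries were the least alike, with 934 genes more than 2-fold apart, against 398 between the shIMPDH2 and 266 between the shLuc libraries. IMPA1 stood at 957 and 1101 normalized counts in shIMPA1 and at 1621 and 1331 in shLuc, and IMPDH2 stood at 2932 and 3166 in shIMPDH2 and at 4270 and 5032 in shLuc. Each target was thus lower in both libraries of its own knockdown, in part and not fully. Of all genes tested, 32.7% were likewise below both shLuc libraries in both shIMPA1 libraries, and 33.4% in both shIMPDH2 libraries. All 10 luminal prostate and 22RV1 markers examined were listed. Of the markers of other cells, 1 of 4 leukocyte genes (LYZ), 0 of 3 endothelial genes and 4 of 6 stromal genes were listed. The stromal genes summed to between 305 and 431 normalized counts in shIMPA1, between 269 and 275 in shIMPDH2 and between 575 and 614 in shLuc. Their part in the results was not tested.

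The bases just upstream of the start of a gene are where antioxidant response elements near the promoter would lie. RefSeq windows of 250 bases before the start (GRCh38.p14) were found for 8 of the 9 genes, with more than 1 start for NFE2L2, KEAP1 and TXNRD1. They were searched on both strands for the core motif TGACNNNGC, which 10.9% of all 35116 windows held. It occurred upstream of GCLM, 1 of the KEAP1 starts and each of the TXNRD1 starts. It did not occur upstream of NFE2L2, GCLC, NQO1, AOX1 or SRXN1, and no match overlapped the related AP-1 motif TGAGTCA or its reverse complement TGACTCA, held by 4.20% of all windows. A match is a run of letters and not a known binding site, and elements further upstream lie outside these windows. The windows shown are those of AOX1 and GCLC, which rose in at least 1 knockdown, and of GCLM and 1 start of TXNRD1, which hold the motif. The motif is in capitals, and on the printed strand both matches read as its reverse complement.
AOX1, chr2:200585764-200586013, plus strand: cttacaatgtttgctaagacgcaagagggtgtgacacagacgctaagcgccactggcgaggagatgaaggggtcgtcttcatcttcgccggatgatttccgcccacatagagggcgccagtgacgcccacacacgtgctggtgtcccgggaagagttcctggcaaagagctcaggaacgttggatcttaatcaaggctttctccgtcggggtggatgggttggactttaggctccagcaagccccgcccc
GCLC, chr6:53545102-53545351, minus strand: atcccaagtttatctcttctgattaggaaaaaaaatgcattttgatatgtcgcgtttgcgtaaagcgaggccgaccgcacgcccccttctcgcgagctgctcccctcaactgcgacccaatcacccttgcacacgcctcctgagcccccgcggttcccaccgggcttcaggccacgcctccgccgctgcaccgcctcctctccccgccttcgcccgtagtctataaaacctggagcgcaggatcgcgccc
GCLM, chr1:93909431-93909680, minus strand: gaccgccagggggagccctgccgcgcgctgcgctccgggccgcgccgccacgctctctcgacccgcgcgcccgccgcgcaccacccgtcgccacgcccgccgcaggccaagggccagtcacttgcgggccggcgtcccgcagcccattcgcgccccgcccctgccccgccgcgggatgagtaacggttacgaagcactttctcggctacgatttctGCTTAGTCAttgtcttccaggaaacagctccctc
TXNRD1, chr12:104286782-104287031, plus strand: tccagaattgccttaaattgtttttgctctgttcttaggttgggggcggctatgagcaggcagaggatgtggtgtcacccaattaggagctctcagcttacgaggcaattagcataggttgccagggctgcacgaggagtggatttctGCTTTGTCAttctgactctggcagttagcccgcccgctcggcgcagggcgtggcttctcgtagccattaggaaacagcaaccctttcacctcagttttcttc

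The 9 genes differed widely in level. Divided by the length of all annotated exons, levels in shLuc ran in the order TXNRD1, KEAP1, NFE2L2, NQO1, GCLC, GCLM, SRXN1, HMOX1 and AOX1. On this scale TXNRD1 had 1216 normalized counts per kilobase, KEAP1 588, NFE2L2 209, HMOX1 47.0 and AOX1 2.72. NQO1 and GCLC overlapped between libraries in that order, as did GCLM and SRXN1. TXNRD1 lay at the 94.3 percentile of all genes on this scale in shLuc and AOX1 at the 2.99 percentile.

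**Figure D1:**
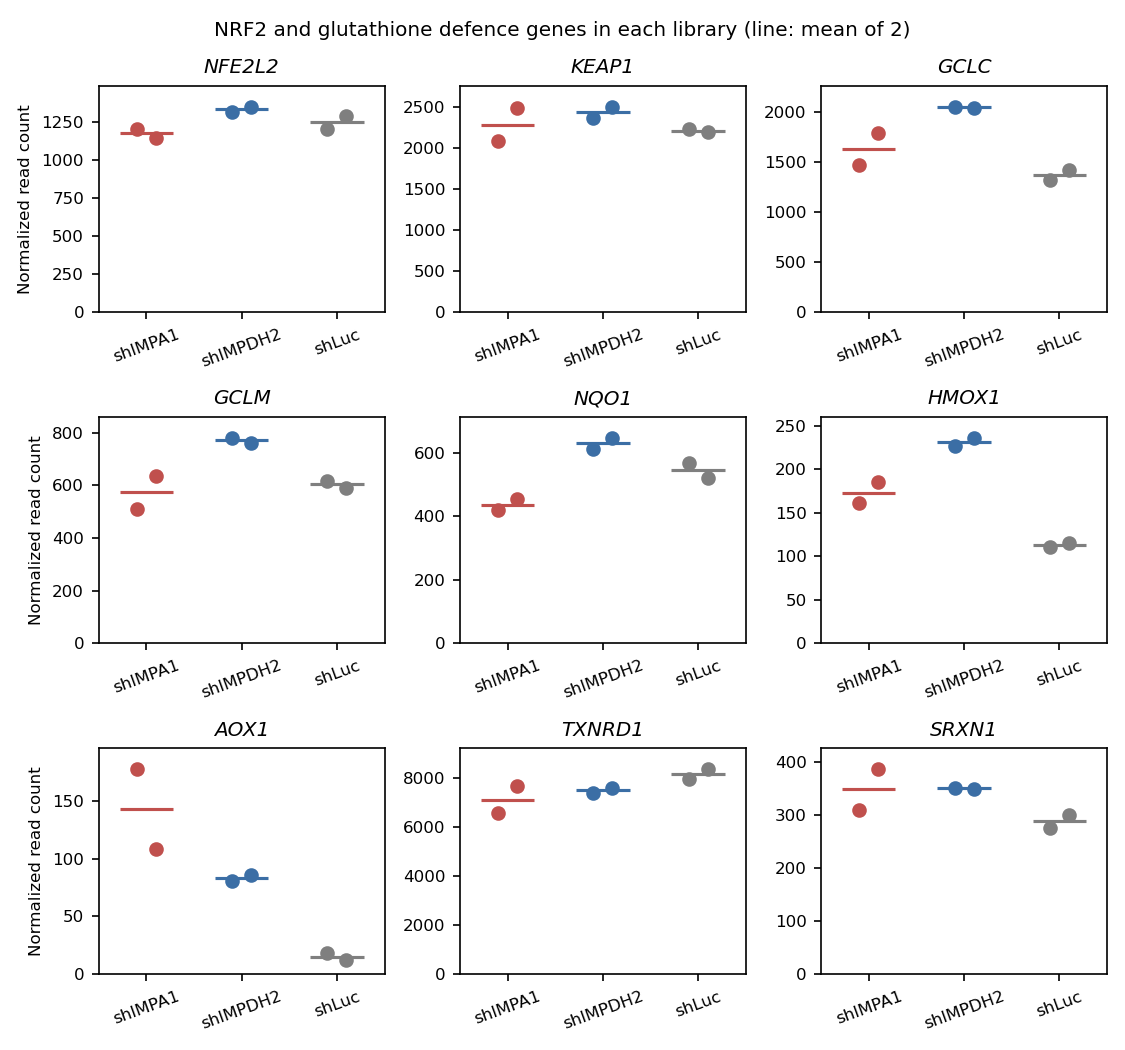
Normalized read count (vertical axis, from 0) of each of the 9 genes in every library of shIMPA1, shIMPDH2 and shLuc. Points are libraries and lines are group means of 2. AOX1, HMOX1, GCLC and SRXN1 are higher in all 4 knockdown libraries than in both shLuc libraries, while NFE2L2 and KEAP1 differ little between groups. Of all genes tested, 33.7% had both shIMPA1 libraries above both shLuc libraries, and 32.7% had both shIMPDH2 libraries above. These shares are for each knockdown alone, and the share of all genes above in both knockdowns was not computed.

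The transcripts of the regulators were not called in any comparison. NFE2L2 (ENSG00000116044, chromosome 2, 177227595 to 177392697 in GRCh38) had 1205 and 1147 normalized counts in shIMPA1, 1315 and 1352 in shIMPDH2, and 1205 and 1292 in shLuc. The shIMPDH2 libraries were the highest by a small margin, and the shIMPA1 and shLuc libraries overlapped. An annotated gene on the same strand, AC019080.1, shares 17.6% of the NFE2L2 exon bases. Counts of NFE2L2 are therefore uncertain where counting drops reads that fit more than 1 gene. On the log2(value + 1) scale used for all fold changes here, NFE2L2 differed from shLuc by -0.09 in shIMPA1 (95% interval -0.34 to 0.17) and by 0.10 in shIMPDH2 (-0.16 to 0.35). KEAP1 (ENSG00000079999, chromosome 19, 10486120 to 10503741) had 2083 and 2483 normalized counts in shIMPA1, 2366 and 2502 in shIMPDH2, and 2228 and 2194 in shLuc. Its log2 fold change was 0.04 in shIMPA1 (-0.23 to 0.31) and 0.14 in shIMPDH2 (-0.13 to 0.41). These intervals leave room for changes of up to about those bounds in either direction.

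Glutathione is made from glutamate, cysteine and glycine, and its first, rate-limiting step is catalysed by a ligase of a catalytic subunit, GCLC, and a modifier subunit, GCLM. GCLC rose in shIMPDH2 and was not called in shIMPA1. GCLC (ENSG00000001084, chromosome 6, 53497341 to 53616970) had 1471 and 1789 normalized counts in shIMPA1, 2051 and 2040 in shIMPDH2, and 1323 and 1423 in shLuc. The shIMPDH2 libraries were nearly equal and stood above all 4 others. An annotated gene on the same strand, AL033397.1, shares 6.12% of the GCLC exon bases. The rise in shIMPDH2 was 1.49-fold (log2 value 0.58 with SE 0.13, adjusted p = 0.0116 by limma). It lost its call without either shLuc library or either shIMPDH2 library (0.52 to 0.63, with limma adjusted p of at most 0.125) and when the fit had no mean-variance trend (limma adjusted p = 0.0649). In shIMPA1 the log2 fold change of GCLC was 0.24 (95% interval -0.04 to 0.52, limma adjusted p = 0.179). It was called there only in the fit without shIMPA1 replicate 1 (0.38, limma adjusted p = 0.00937).

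GCLM (ENSG00000023909, chromosome 1, 93885205 to 93909456), whose window above holds the motif, had 510 and 638 normalized counts in shIMPA1, 782 and 760 in shIMPDH2, and 617 and 592 in shLuc. Both shIMPDH2 libraries lay above the other 4, and the shIMPA1 libraries lay on either side of shLuc. Against shLuc its log2 fold change was -0.08 in shIMPA1 (95% interval -0.39 to 0.22) and 0.35 in shIMPDH2 (0.05 to 0.66, limma adjusted p = 0.108). With only shIMPDH2 and shLuc in the fit, the same rise passed (limma adjusted p = 0.00713). That fit called 6382 of all genes, against 3018 with all 6 libraries. The rise also passed without shIMPA1 replicate 1 or 2. Those fits likewise leave out the spread between the shIMPA1 libraries, so they are not separate support. Both subunits of the ligase thus had higher means in shIMPDH2 than in shLuc, with a call for GCLC in the fit of all libraries.

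The quinone, heme and aldehyde enzymes held the largest changes of the 9 genes. AOX1, aldehyde oxidase, is a molybdenum enzyme that oxidises aldehydes and nitrogen heterocycles and releases hydrogen peroxide. AOX1 (ENSG00000138356, chromosome 2, 200585868 to 200677064) had 178 and 108 normalized counts in shIMPA1, 80.9 and 85.5 in shIMPDH2, and 18.0 and 12.3 in shLuc. Every knockdown library was above both shLuc libraries, with the shIMPA1 libraries highest and furthest apart. In recovered reads these values were 198 and 125 in shIMPA1, 70 and 76 in shIMPDH2, and 20 and 14 in shLuc, so the control level rests on few reads. AOX1 rose 8.79-fold in shIMPA1 (95% interval 5.64 to 13.7, log2 value 3.14 with SE 0.29, adjusted p = 3.60e-05 by limma). It rose 5.30-fold in shIMPDH2 (95% interval 3.40 to 8.26, log2 value 2.41 with SE 0.29, adjusted p = 0.000359 by limma). Both SEs come from 1 spread shared by all groups, so they do not show that the shIMPA1 libraries were further apart. Of the 17742 genes tested, AOX1 had the 58th highest fold change in shIMPA1 and the 47th highest in shIMPDH2. The size depends on the settings. Over the 11 alternative fits that left out no single library, its log2 fold change ran from 2.575 to 3.23 in shIMPA1. In shIMPDH2 it ran from 1.90 to 2.48. Both calls held in each of the 6 fits that left out 1 library, with log2 fold changes of 2.78 to 3.49 in shIMPA1 and 2.15 to 2.67 in shIMPDH2.

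HMOX1, heme oxygenase 1, breaks heme down to biliverdin, carbon monoxide and iron, and is held down by the repressor BACH1 until heme or oxidants rise. HMOX1 (ENSG00000100292, chromosome 22, 35380361 to 35394214) had 161 and 186 normalized counts in shIMPA1, 226 and 236 in shIMPDH2, and 111 and 116 in shLuc. The 3 groups did not overlap, and shIMPDH2 was highest. HMOX1 rose 2.04-fold in shIMPDH2 (log2 value 1.03 with SE 0.17, adjusted p = 0.00210 by limma) and 1.52-fold in shIMPA1 (log2 value 0.61 with SE 0.17, adjusted p = 0.0190 by limma). The call in shIMPDH2 held in each fit that left out 1 library. The call in shIMPA1 was lost without shLuc replicate 1 or 2 (0.58 and 0.64, limma adjusted p = 0.123 and 0.0954).

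NQO1 reduces quinones by a step that avoids the reactive semiquinone, and is among the most used reporters of NRF2 activity. NQO1 (ENSG00000181019, chromosome 16, 69706996 to 69726951) had 419 and 455 normalized counts in shIMPA1, 612 and 648 in shIMPDH2, and 569 and 521 in shLuc. The shIMPA1 libraries were the lowest and the shIMPDH2 libraries the highest, without overlap. Neither difference from shLuc was called, at -0.32 in shIMPA1 (95% interval -0.60 to -0.03, limma adjusted p = 0.0893) and 0.21 in shIMPDH2 (-0.08 to 0.50, limma adjusted p = 0.298). Without shIMPA1 replicate 2, the difference in shIMPA1 passed (-0.38, limma adjusted p = 0.0311). An annotated antisense gene covers 17.7% of the NQO1 exon bases, and the sources used here do not say whether counting used strand.

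TXNRD1 and SRXN1 serve the thioredoxin system and were not called in any comparison with all 6 libraries. TXNRD1, the cytosolic selenoenzyme that keeps thioredoxin reduced (ENSG00000198431, chromosome 12, 104215779 to 104350305), had 6558 and 7649 normalized counts in shIMPA1, 7383 and 7597 in shIMPDH2, and 7940 and 8373 in shLuc. All 4 knockdown libraries were below both shLuc libraries. For each knockdown alone, 32.7% of all genes tested lay below in this way in shIMPA1 and 33.4% in shIMPDH2. The share of all genes below in both was not computed. The log2 fold change of TXNRD1 was -0.20 in shIMPA1 (95% interval -0.48 to 0.08) and -0.12 in shIMPDH2 (-0.40 to 0.16). SRXN1, which restores overoxidised peroxiredoxins (ENSG00000271303, chromosome 20, 646615 to 653370), had 309 and 387 normalized counts in shIMPA1, 351 and 349 in shIMPDH2, and 276 and 300 in shLuc. All 4 knockdown libraries were above both shLuc libraries, where 33.7% of all genes lay above in shIMPA1 alone and 32.7% in shIMPDH2 alone. The log2 fold change of SRXN1 was 0.26 in shIMPA1 (-0.08 to 0.60) and 0.28 in shIMPDH2 (-0.06 to 0.62). It was called in shIMPA1 only without shIMPA1 replicate 1 (0.43, limma adjusted p = 0.0176). The gene AL121758.1, on the same strand, shares 85.0% of the SRXN1 exon bases, so its counts are uncertain where counting drops reads that fit more than 1 gene.

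**Figure D2:**
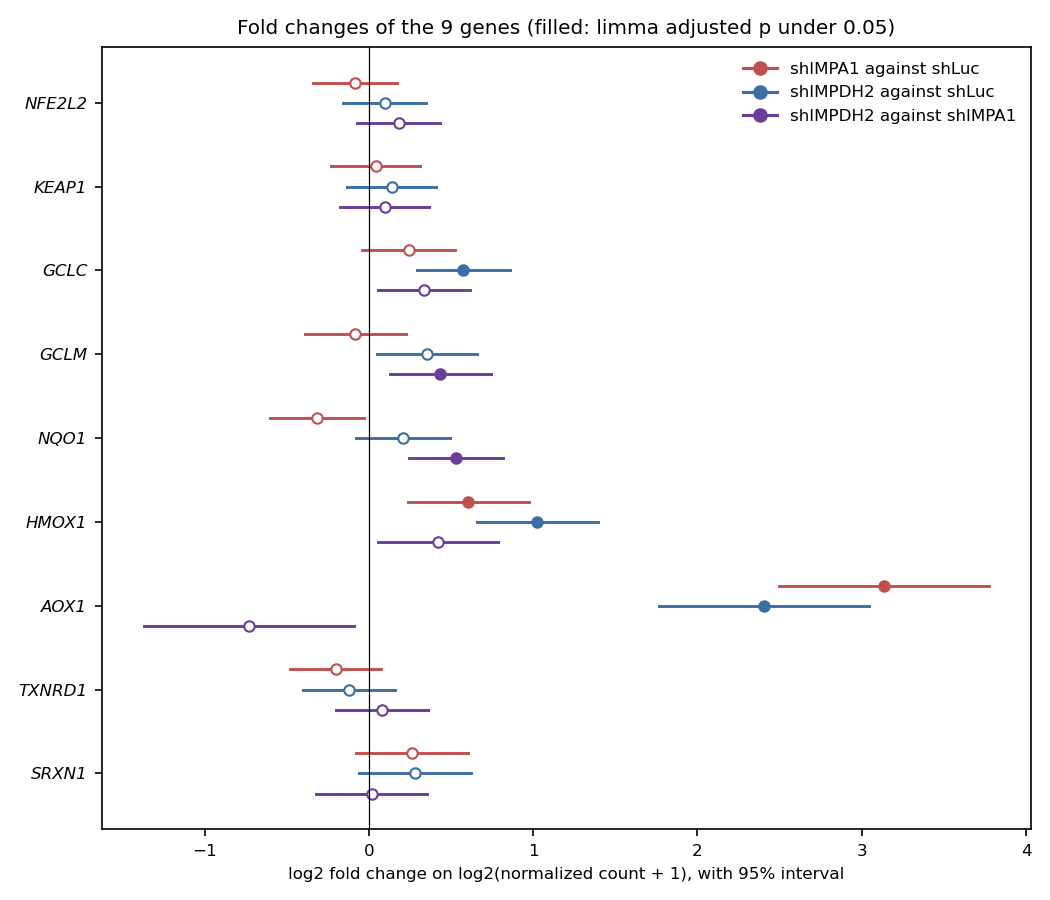
Log2 fold change of each gene (horizontal axis, log2 of normalized count + 1) with its 95% interval for shIMPA1 against shLuc, shIMPDH2 against shLuc and shIMPDH2 against shIMPA1. Filled points passed limma at an adjusted p under 0.05. AOX1 stands apart at 3.14 and 2.41 against shLuc, and the intervals of NFE2L2, KEAP1, TXNRD1 and SRXN1 include 0 in every comparison.

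In shIMPA1 against shLuc, 2 of the 9 genes rose, AOX1 and HMOX1, and 0 fell. Of all genes tested in that comparison, 30.2% were called, 14.0% higher and 16.2% lower. With an unadjusted p under 0.05, limma gave 2 higher and 1 lower, and edgeR and DESeq2 on recovered reads each called 2 higher and 0 lower. The median log2 fold change of the 9 was 0.04, beside 0.02 over all genes tested, and the median size of change was 0.24, beside 0.33. The share of the 9 genes called was therefore no higher than the background in shIMPA1. Of the 9, 4 had both shIMPA1 libraries above both shLuc libraries and 2 had both below, where 33.7% and 32.7% of all genes did. The number called fell without either shLuc library and grew without shIMPA1 replicate 1, as did the number over all genes. Without shIMPA1 replicate 2 it also grew, with NQO1 lower (-0.38), while the number over all genes hardly changed.

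In shIMPDH2 against shLuc, 3 of the 9 genes rose, AOX1, HMOX1 and GCLC, and 0 fell, where 7.86% of all genes tested rose, 9.15% fell and 17.0% were called in either direction. With an unadjusted p under 0.05, limma gave 4 higher and 0 lower, and edgeR and DESeq2 each called 3 higher and 0 lower. Of the 9 genes, 8 had both shIMPDH2 libraries above both shLuc libraries, and 1, TXNRD1, had both below. Over all genes tested, 32.7% lay above and 33.4% below in this way. The median log2 fold change of the 9 was 0.28, beside -0.01 over all genes. Because both knockdowns were set against the same shLuc libraries, their changes are not independent of each other.

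Set directly against each other, shIMPDH2 had higher NQO1 and GCLM than shIMPA1. NQO1 was 1.44-fold higher (log2 value 0.53 with SE 0.13, adjusted p = 0.0133 by limma), and the call was lost without shIMPDH2 replicate 1 or 2 (limma adjusted p = 0.0777 and 0.132). GCLM was 1.35-fold higher (log2 value 0.43 with SE 0.14, adjusted p = 0.0404 by limma). That call held in only 1 of the 6 fits with a library left out, the one without shIMPA1 replicate 2 (0.60), and the value was 0.27 without shIMPA1 replicate 1. DESeq2 did not call it (adjusted p = 0.0562). Without shIMPDH2 replicate 1 or 2, fewer of the 9 and fewer of all genes were called than with all libraries. These 2 of 9 genes compare with 26.1% of all genes called, 13.5% higher and 12.6% lower, in that comparison. Both shIMPDH2 libraries lay above both shIMPA1 libraries for 5 of the 9 and below for 1, AOX1, where 31.5% and 32.4% of all genes did.

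The remaining 7 genes were not called between the knockdowns. AOX1 had a log2 fold change of -0.73 (95% interval -1.37 to -0.09, limma adjusted p = 0.0885), while edgeR on recovered reads called it (adjusted p = 0.0494), as did limma without shIMPA1 replicate 2 (-1.09, adjusted p = 0.00169). HMOX1 stood at 0.42 (0.05 to 0.79, limma adjusted p = 0.0868) and GCLC at 0.33 (0.05 to 0.61, limma adjusted p = 0.0758). Without shIMPA1 replicate 2, HMOX1 (0.52, limma adjusted p = 0.0243) and GCLC (0.48, limma adjusted p = 0.00159) passed. NFE2L2 (0.18), KEAP1 (0.10), TXNRD1 (0.08) and SRXN1 (0.02) had intervals that include 0.

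**Figure D3:**
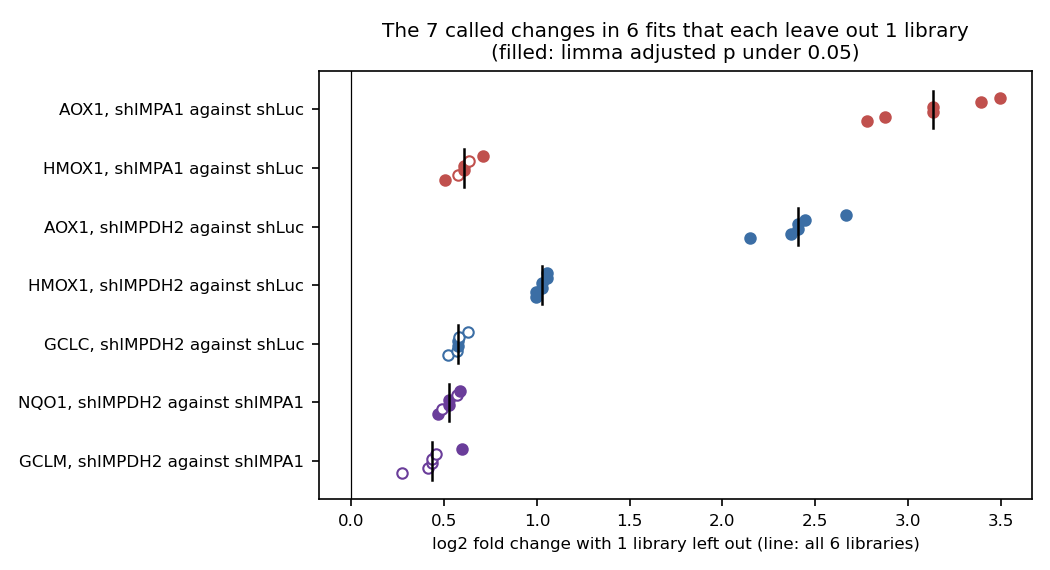
Log2 fold change (horizontal axis) of the 7 called changes in 6 fits that each leave out 1 library, as points, and with all libraries, as a line. Filled points passed limma at an adjusted p under 0.05. AOX1 in both knockdowns and HMOX1 in shIMPDH2 keep their calls, GCLC keeps it in 2 of 6 fits and GCLM in 1 of 6.

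For each of the 9 genes, the gene with the nearest pattern over the 6 libraries was sought among 13305 named genes by Euclidean distance of centred log2 values. ZNF595 lay nearest to NFE2L2 (0.02), HSDL1 to KEAP1 (0.05), CINP to GCLC (0.04), IL17RC to GCLM (0.10) and RNPC3 to NQO1 (0.08). TCTA lay nearest to HMOX1 (0.15), SNRNP35 to TXNRD1 (0.06) and SEC24C to SRXN1 (0.07). AOX1 had no close neighbour, with CREB3L1 nearest at 0.69, while the median distance of all genes from AOX1 was 3.36. Among the 9 genes themselves, GCLM and NQO1 lay nearest to each other (0.29), as did KEAP1 and SRXN1 (0.26).

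A wider list of 129 genes of NRF2 partners, glutathione, thioredoxin, iron and NADPH metabolism was set beside the 9 genes. It did not include them, and 118 of its genes were listed and tested. In shIMPA1, 25 rose and 21 fell, which is 39.0% of the list, beside the 30.2% of all genes. In shIMPDH2, 18 rose and 8 fell, which is 22.0%, beside 17.0%. Between the knockdowns, 25 were higher and 24 lower in shIMPDH2, which is 41.5%, beside 26.1%. The median log2 fold change of the list was 0.02 in shIMPA1, 0.05 in shIMPDH2 and 0.15 between the knockdowns, beside 0.02, -0.01 and -0.004 over all genes. The number called in the list and over all genes both varied from fit to fit. In shIMPDH2, 49 of the list and 6382 of all genes were called when only shIMPDH2 and shLuc were fitted. Without shIMPA1 replicate 1 or 2 the list again gave 49, with 6383 and 6386 of all genes. The list gave 7 calls without shLuc replicate 1, with 803 of all genes, and 8 without shLuc replicate 2, with 773. It gave 9 without shIMPDH2 replicate 1, with 998 of all genes, and 7 without shIMPDH2 replicate 2, with 839. In shIMPA1 the list gave 29 calls without shLuc replicate 1, with 2189 of all genes, and 71 without shIMPA1 replicate 1, with 7940. Between the knockdowns it gave 24 and 20 without shIMPDH2 replicate 1 and 2, with 1875 and 1430 of all genes.

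**Figure D4:**
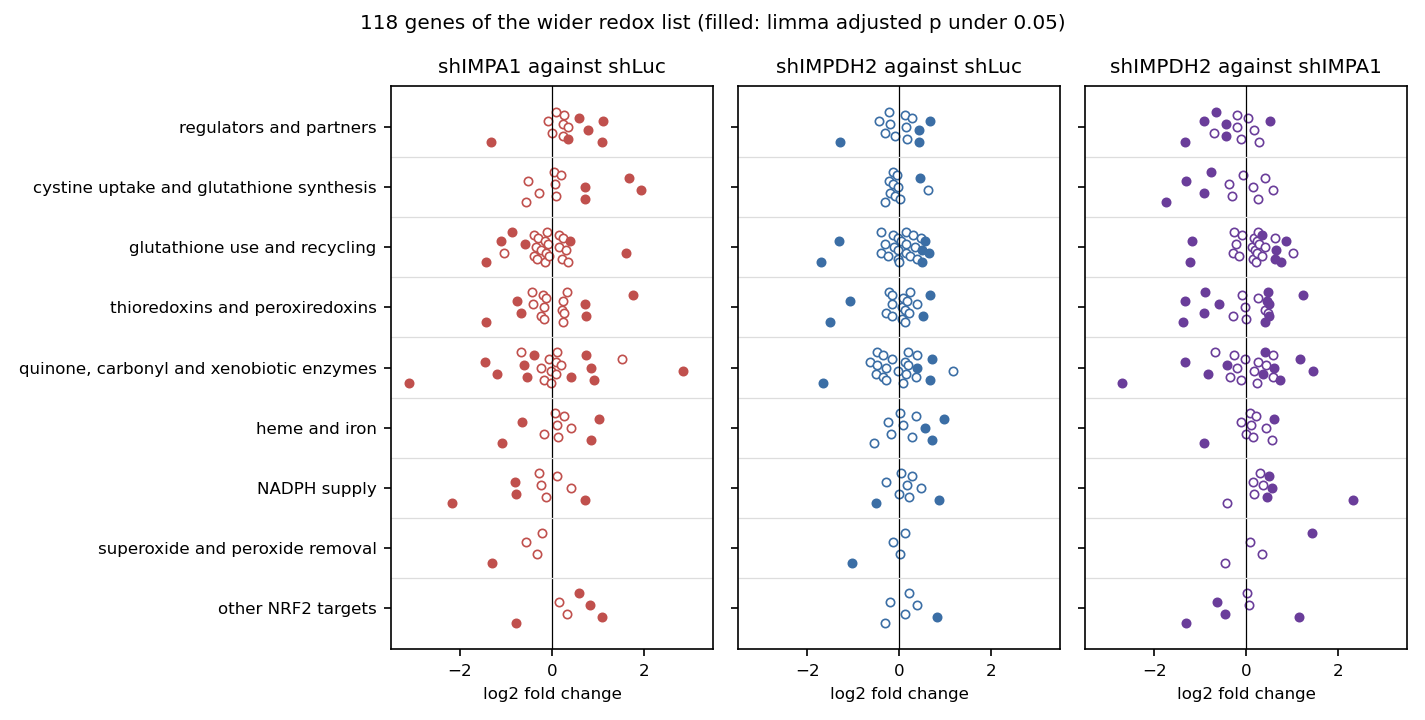
Log2 fold change (horizontal axis) of 118 genes of the wider redox list by role, with 1 panel per comparison. Filled points passed limma at an adjusted p under 0.05. In shIMPA1, the regulators and the cystine genes lie mostly to the right, and the superoxide and peroxide genes lie to the left.

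Of 13 partners and relatives of NRF2, 5 rose and 1 fell in shIMPA1 (46.2% called, beside 30.2% of all genes), and 3 rose and 1 fell in shIMPDH2 (30.8%, beside 17.0%). NFE2L1, a related factor that induces proteasome genes, stood at 10534 and 10087 normalized counts in shIMPA1, 5393 and 5487 in shIMPDH2, and 4881 and 4780 in shLuc. It rose in shIMPA1 (log2 fold change 1.09, limma adjusted p = 8.72e-05) and stood at 0.17 in shIMPDH2. MAFF, a small MAF protein that can pair with NRF2, rose in shIMPA1 (1.12, limma adjusted p = 0.000324) and stood at -0.21 in shIMPDH2. Both were lower in shIMPDH2 than in shIMPA1 (-0.92 for NFE2L1 and -1.33 for MAFF). NFE2L3, another member of the family, fell in shIMPA1 (-1.34) and in shIMPDH2 (-1.29, limma adjusted p = 0.00101).

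Of 11 genes of cystine uptake and glutathione turnover, 4 rose and 0 fell in shIMPA1, and 7 were not called. The share that was called was 36.4%, beside 30.2% of all genes, and the median log2 fold change of the 11 was 0.08. With an unadjusted p under 0.05, limma gave 4 higher and 2 lower, and edgeR and DESeq2 each called 4 higher and 0 lower. SLC3A2, the heavy chain of several amino acid exchangers including the cystine importer, had 17781 and 11242 normalized counts in shIMPA1, 4049 and 4375 in shIMPDH2, and 4439 and 4444 in shLuc. It rose in shIMPA1 (log2 fold change 1.67, limma adjusted p = 0.000108). CHAC1, which degrades glutathione and is a target of the stress factor ATF4, rose too (1.93, limma adjusted p = 8.12e-05), and its value in shIMPDH2 was 0.63 (limma adjusted p = 0.0541). SLC7A11, the light chain that carries cystine and a target of both NRF2 and ATF4, had 2623 and 1383 normalized counts in shIMPA1, 1063 and 964 in shIMPDH2, and 1126 and 1201 in shLuc. Its call in shIMPA1 (0.71, limma adjusted p = 0.0365) held in 1 of the 6 fits with a library left out, with 0.25 without shIMPA1 replicate 1 and 1.17 without shIMPA1 replicate 2. All 3 genes were lower in shIMPDH2 than in shIMPA1 (-1.75 for SLC3A2, -1.30 for CHAC1 and -0.91 for SLC7A11). The SLC7A11 difference was -0.45 without shIMPA1 replicate 1 and -1.37 without shIMPA1 replicate 2, and lost its call without shIMPDH2 replicate 1 or 2. In shIMPDH2 against shLuc, 1 of the 11 rose (9.09% called, beside 17.0% of all genes), the glutathione synthetase GSS (0.45, limma adjusted p = 0.0271), chosen after its values were seen.

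Of 25 tested genes that use or recycle glutathione, 2 rose and 4 fell in shIMPA1, and 4 rose and 2 fell in shIMPDH2. That is 24% called in each, below the 30.2% of all genes in shIMPA1 and above the 17.0% in shIMPDH2. The glutathione transferase GSTA1 rose in shIMPA1 (log2 fold change 1.61, limma adjusted p = 0.000727), and the transferase GSTO1 fell (-1.11, limma adjusted p = 0.000522). Between the knockdowns GSTA1 was lower in shIMPDH2 (-1.21, lost without shIMPDH2 replicate 1) and GSTO1 higher (0.86, lost without shIMPDH2 replicate 2). GSTA1 has close paralogs that uniquely aligned reads may not separate. GLRX, a glutaredoxin that removes glutathione from proteins, had 97.8 and 63.8 normalized counts in shIMPA1, 57.8 and 74.2 in shIMPDH2, and 240 and 191 in shLuc. It fell in shIMPA1 (-1.43, limma adjusted p = 0.00172) and in shIMPDH2 (-1.69, limma adjusted p = 0.00106).

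The thioredoxin and peroxiredoxin genes had 3 of 18 higher and 3 lower in shIMPA1, and 2 higher and 2 lower in shIMPDH2. The shares called, 33.3% and 22.2%, lay near the 30.2% and 17.0% of all genes. Between the knockdowns, 6 were higher and 5 lower in shIMPDH2, which is 61.1%, beside 26.1% of all genes. PRDX1, an abundant peroxiredoxin and a known NRF2 target, stood at 3065 and 3245 normalized counts in shIMPA1, 6887 and 7975 in shIMPDH2, and 8693 and 8483 in shLuc. It fell in shIMPA1 (log2 fold change -1.44, limma adjusted p = 2.12e-05) and stood at -0.21 in shIMPDH2. SESN2, a sestrin induced by p53, ATF4 and NRF2, rose in shIMPA1 (1.76, limma adjusted p = 5.13e-06) and stood at 0.39 in shIMPDH2 (limma adjusted p = 0.0519). SESN3, a sestrin under FOXO control, fell in shIMPDH2 (-1.08, limma adjusted p = 0.000220) and stood at -0.17 in shIMPA1. Set directly against shIMPA1, shIMPDH2 had more PRDX1 (1.23) and less SESN2 (-1.37) and SESN3 (-0.91).

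Of 4 genes of superoxide and peroxide removal, 1 fell in shIMPA1 and 1 fell in shIMPDH2, which is 25.0% in each, beside 30.2% and 17.0% of all genes called. SOD1, the cytosolic superoxide dismutase, had 4690 and 4260 normalized counts in shIMPA1, 10948 and 13122 in shIMPDH2, and 11728 and 10299.5 in shLuc. It fell in shIMPA1 (log2 fold change -1.30, limma adjusted p = 9.49e-05) and was higher in shIMPDH2 than in shIMPA1 (1.42, limma adjusted p = 6.13e-05). The gene that fell in shIMPDH2 was the extracellular dismutase SOD3 (-1.03, limma adjusted p = 0.0421), which DESeq2 did not call and which was chosen after its values were seen. SOD3 rests on few reads, 23 and 15 recovered reads in shIMPDH2 and 48 and 52 in shLuc. Its normalized counts lay below 50, the minimum mean for other named genes of the wider list, in every library. With an unadjusted p under 0.05, limma gave 0 higher in either knockdown, and edgeR and DESeq2 called 0 higher.

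Genes of heme and iron handling had 2 of 10 higher and 2 lower in shIMPA1, and 3 higher and 0 lower in shIMPDH2. That is 40.0% called in shIMPA1 and 30.0% in shIMPDH2, beside 30.2% and 17.0% of all genes. For shIMPDH2, limma gave 4 higher and 1 lower at an unadjusted p under 0.05, and edgeR and DESeq2 each called 3 higher and 0 lower. FTL, the light chain of the iron store ferritin, had 7464 and 10876 normalized counts in shIMPA1, 9445 and 10082 in shIMPDH2, and 4882 and 5079 in shLuc. It rose in shIMPA1 (log2 fold change 0.86, limma adjusted p = 0.00320) and in shIMPDH2 (0.97, limma adjusted p = 0.00280), and the call in shIMPDH2 was lost without shLuc replicate 1 or shIMPDH2 replicate 2 (limma adjusted p up to 0.0551). FTH1, the heavy chain, rose in shIMPA1 (1.02, limma adjusted p = 0.00456), with 0.63 without shIMPA1 replicate 2 and no call without shLuc replicate 1, and stood at 0.09 in shIMPDH2. Between the knockdowns FTH1 was lower in shIMPDH2 (-0.93, and -0.54 without shIMPA1 replicate 2), a call lost without either shIMPDH2 library. FTH1, FTL and PRDX1 have many processed pseudogenes, so counts of uniquely aligned reads may miss part of them. SLC40A1, the iron exporter ferroportin, fell in shIMPA1 (-1.10, limma adjusted p = 0.00309). BLVRA and BLVRB, the biliverdin reductases that act after HMOX1, rose in shIMPDH2 (0.72 and 0.57, limma adjusted p = 0.00782 and 0.0400) and were chosen after their values were seen. BLVRA had 1332 and 1816 normalized counts in shIMPA1, 2290 and 2424 in shIMPDH2, and 1373 and 1481 in shLuc. BLVRB had 3228 and 4364 in shIMPA1, 3773 and 4647 in shIMPDH2, and 3096 and 2584 in shLuc. Both shIMPA1 libraries were thus also above both shLuc libraries for BLVRB.

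Enzymes that supply NADPH, the reductant of both the glutathione and the thioredoxin systems, had 1 of 9 higher and 3 lower in shIMPA1, and 1 higher and 1 lower in shIMPDH2. The shares called were 44.4% in shIMPA1 and 22.2% in shIMPDH2, beside 30.2% and 17.0% of all genes. ME1, the cytosolic malic enzyme, had 18.0 and 16.4 normalized counts in shIMPA1, 110 and 74.2 in shIMPDH2, and 88.2 and 73.5 in shLuc. It fell in shIMPA1 (log2 fold change -2.17, limma adjusted p = 0.000225) and was higher in shIMPDH2 than in shIMPA1 (2.33, limma adjusted p = 0.000170). The pentose phosphate enzyme TKT fell in shIMPA1 (-0.79, limma adjusted p = 0.000995) and was higher in shIMPDH2 than in shIMPA1 (0.51), a call lost without either shIMPDH2 library. Mitochondrial IDH2 fell in shIMPA1 (-0.81) and in shIMPDH2 (-0.50, limma adjusted p = 0.0228), and the call in shIMPDH2 was lost without any 1 of the 4 libraries compared. The 1 gene that rose, in both knockdowns, was cytosolic IDH1 (0.71 in shIMPA1 and 0.86 in shIMPDH2), chosen after its values were seen.

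Among 22 quinone, carbonyl and xenobiotic genes, 5 rose and 6 fell in shIMPA1, and 3 rose and 1 fell in shIMPDH2. In shIMPA1 50% were called, beside 30.2% of all genes, and in shIMPDH2 18.2%, near the 17.0% of all genes. Between the knockdowns, 6 were higher and 4 lower in shIMPDH2, which is 45.5%, beside 26.1% of all genes. CYP1B1, an oestrogen and xenobiotic hydroxylase induced by the aryl hydrocarbon receptor, had 1008 and 1223 normalized counts in shIMPA1, 179 and 163 in shIMPDH2, and 144 and 162 in shLuc. It rose in shIMPA1 (log2 fold change 2.85, limma adjusted p = 9.79e-07) and was lower in shIMPDH2 than in shIMPA1 (-2.69). AKR1C3, an aldo-keto reductase of androgen synthesis and a known NRF2 target, had 15.3 and 11.2 normalized counts in shIMPA1, 31.2 and 45.0 in shIMPDH2, and 117 and 123 in shLuc. It fell in shIMPA1 (-3.10, limma adjusted p = 3.59e-05) and in shIMPDH2 (-1.65, limma adjusted p = 0.00311), and the call in shIMPDH2 was not kept when either shLuc library was left out (limma adjusted p of at most 0.0669). Its near-identical relatives make its counts uncertain. AKR1C3 was higher in shIMPDH2 than in shIMPA1 (1.45, lost without shIMPDH2 replicate 2). The efflux pump ABCC4 rose in shIMPA1 (0.85, lost without either shLuc library, and 0.56 without shIMPA1 replicate 2) and was lower in shIMPDH2 than in shIMPA1 (-1.34).

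Of 6 further NRF2 targets tested, 3 rose and 1 fell in shIMPA1, and 1 rose and 0 fell in shIMPDH2. Those 4 of 6 are 66.7%, beside 30.2% of all genes, and the 1 of 6 is 16.7%, near the 17.0% of all genes. Between the knockdowns, 1 was higher and 3 lower in shIMPDH2, which is 66.7%, beside 26.1% of all genes. In shIMPDH2, limma gave 2 higher and 0 lower at an unadjusted p under 0.05, and edgeR and DESeq2 each called 1 higher and 0 lower. PIR, the iron-binding nuclear protein pirin, had 593 and 672 normalized counts in shIMPA1, 1280 and 1560 in shIMPDH2, and 1117 and 1042 in shLuc. It fell in shIMPA1 (log2 fold change -0.77, limma adjusted p = 0.00193), was higher in shIMPDH2 than in shIMPA1 (1.16, limma adjusted p = 0.000201) and stood at 0.39 in shIMPDH2 against shLuc. The glycine transporter SLC6A9 rose in shIMPA1 (1.09, limma adjusted p = 0.00382), with 0.69 without shIMPA1 replicate 1 and no call without shLuc replicate 1, and was lower in shIMPDH2 than in shIMPA1 (-1.30). TRIM16, a ubiquitin ligase, was lower in shIMPDH2 than in shIMPA1 (-0.63, lost without either shIMPDH2 library), and neither difference from shLuc was called (0.32 in shIMPA1 and -0.31 in shIMPDH2). The 1 gene that rose in shIMPDH2 was OSGIN1 (0.83, limma adjusted p = 0.0232), an oxidative stress-induced growth inhibitor, which also rose in shIMPA1 (0.82, limma adjusted p = 0.0154) and was chosen after its values were seen.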

How the data were processed

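The authors deposited normalized counts, a signal made by dividing whole read counts by 1 size factor per library. Per the submitters' processing notes, Trimmomatic 0.36, STAR 2.5.2b, Subread 1.5.2 and DESeq2 were used with GRCh38, and per the labels' protocols uniquely aligned reads in exons were counted per gene. The labels leave the strand setting conditional and no annotation release is given. Per the file headers, the deposited table also holds log2 fold change, p-value and adjusted p columns of a comparison it does not name, which were not used.

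Whole reads were recovered for at least 99.98% of values, within 0.05 reads. The filter kept 17742 genes that reached a value of 10 in 2 or more libraries and removed 69. log2(value + 1) was fitted with limma 3.58.1 (R 4.3.3) over all 6 libraries, using 1 coefficient per group and a mean-variance trend. P-values were adjusted by Benjamini-Hochberg over all genes tested, with calls under 0.05. Each gene had 1 spread shared by all groups, although the shIMPA1 libraries were the least alike. edgeR 4.0.16 (quasi-likelihood) and DESeq2 1.42.0 on recovered reads, other scalings, pseudocounts (10 and 0.1), filters, a fit without trend, fits of 2 groups, a replicate block and leaving out each library were alternatives. Of these fits, only the main limma fit was tested on simulated data. Symbols came from a gene name table for 16275 of 17811 genes, and coordinates and exon lengths from GENCODE 29. Genes named from the wider list were, per role, up to 3 with the smallest adjusted p in any comparison, among those called without overlap of the groups and with a mean of at least 50, beside those said to be chosen after their values were seen. For the genes chosen after their values were seen, no result of the fits without 1 library is given, so how far those calls hold is not known. The 9 genes, the lists and the tests were chosen with earlier results of these data known.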

Additional observations from a re-analysis of the deposited data

Results flagged for a closer look

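For 2 of the 9 genes, a direct test of shIMPDH2 against shIMPA1 called a difference between the knockdowns, a share of 22.2% where 26.1% of all genes tested were called. NQO1 had a log2 difference of 0.53 and GCLM of 0.435, both higher in shIMPDH2 (limma adjusted p = 0.0133 and 0.0404). In each, both shIMPDH2 libraries lay above both shIMPA1 libraries, as they did for 31.5% of all genes tested. NQO1 lost its call without shIMPDH2 replicate 1 or 2, and GCLM kept its call in 1 of the 6 fits without 1 library.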

How the results depend on the processing

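Of the 7 called changes among the 9 genes, 3 kept their call in each of the 6 fits without 1 library: AOX1 in both knockdowns and HMOX1 in shIMPDH2. A fit without 1 library leaves a group with 1 sample, assumed to vary like the others. Without 1 library, the 9 genes gave 1 to 4 calls in shIMPA1, 2 to 4 in shIMPDH2 and 0 to 5 between the knockdowns. The wider list gave 29 to 71, 7 to 49 and 20 to 63, and all genes gave 2147 to 7940, 773 to 6386 and 1430 to 7052, in the same order. Without a mean-variance trend, all genes gave 3508 calls in shIMPA1, 1727 in shIMPDH2 and 2909 between the knockdowns, against 5361, 3018 and 4627 with it. The wider list then gave 13 in shIMPDH2 and 31 between the knockdowns. With only shIMPDH2 and shLuc fitted, 6382 of all genes and 49 of the wider list were called. Between the knockdowns, 1 of the 9 genes was called without the trend, with only 2 groups and with DESeq2. The cause was not tested.

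Directions that turned without 1 library all belonged to changes that were not called. In shIMPA1, KEAP1 ranged from -0.0857 to 0.17 and GCLM from -0.24 to 0.0782. Between the knockdowns, KEAP1 ranged from -0.0293 to 0.22, TXNRD1 from -0.0303 to 0.19, SRXN1 from -0.15 to 0.18, GLRX from -0.57 to 0.0361, FTL from -0.16 to 0.39 and NFE2L3 from -0.23 to 0.32. In shIMPDH2, ME1 ranged from -0.12 to 0.44, FTH1 from -0.0158 to 0.20 and SOD1 from -0.0056 to 0.26.

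Replicate numbers did not pair the libraries (correlations of deviations 0.04 for shIMPA1 with shLuc, -0.05 for shIMPDH2 with shLuc and 0.0003 between the knockdowns). With a replicate block, 2, 3 and 2 of the 9 genes, 47, 24 and 51 of the wider list and 5298, 2939 and 4537 of all genes were called. With 2 libraries per group, small changes are not resolved, and AOX1 in shLuc rests on 34 reads in all.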
